A study of Mus musculus with 2 samples.

Results

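The cytochrome P450 genes were read on 2 glomerular arrays, 1 from mice lacking GC-A and p38 in podocytes and 1 from floxed control mice. A member was any gene whose symbol begins with Cyp followed by a digit, named by a probe set that carries exactly 1 gene symbol. Cyp51, a gene of sterol synthesis, was left out. The rule found 72 genes of 18193, read by 95 probe sets. The RefSeq gene table lists 98 protein-coding genes of this kind, of which 70 had such a probe set, and the others were not analysed here. A further 4 probe sets list several P450 genes each and were also left out.

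Both groups were male mice on the C57BL/6J background that carried GC-A fl/fl and p38 fl/fl alleles, so the floxed alleles were shared by the control. The double knockout also had Nephrin-Cre (Cre/+), whereas the floxed control was Nephrin-Cre (+/+), read here as having no Cre allele. GC-A is a guanylyl cyclase that serves as receptor for natriuretic peptides, and p38 names protein kinases activated by stress. The nephrin promoter is active in podocytes, which cover the glomerular capillaries, so cells of the tubule are taken to carry unrecombined floxed alleles in both groups. Recombination in tubule cells was not measured. All mice were 2 months old and had been given chow with 6% NaCl together with aldosterone, infused at 0.2 µg/kg per minute for 3 weeks. Glomeruli were collected by graded sieving. There was 1 array for each genotype, and the number of mice behind it is not stated in the labels. No difference here has a replicate check or a p-value, and the words higher and lower describe the double knockout array against the floxed control array.

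Cytochrome P450 enzymes are heme-containing monooxygenases that insert oxygen into lipids, steroids, vitamins and foreign compounds. Most sit in the endoplasmic reticulum and take electrons from P450 oxidoreductase, and a few sit in mitochondria and take them from ferredoxin. In the kidney the proximal tubule is the main site of the xenobiotic and fatty acid families, where they make epoxide and hydroxyl derivatives of arachidonic acid that act on vessel tone and sodium transport. Tubule P450 enzymes also activate and inactivate vitamin D.

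Values are MAS5 signals, intensities on a linear scale. A gene was taken as measured where its higher signal reached a floor of 52.7, and lower signals were raised to the floor before the log2 difference was taken, so a fold against a signal below the floor is a lower bound. On this basis 42 of the 72 P450 genes were measured, 36 of them on both arrays, and 30 stayed below the floor. The P450 genes belonged to 15 families by number, and 12 of these had a measured gene. Over all probe sets the signals had a median of 94.7 for the double knockout array and 88.6 for the floxed control array. The deleted gene Npr1, which encodes GC-A, read 102 in the double knockout against 167 in the floxed control, a log2 difference of -0.71. Mapk14, which encodes p38α and is assumed to be the floxed gene because no isoform is named, read 2607 and 2628 in its probe set of highest signal, a log2 difference of -0.01. Where these probe sets lie relative to the floxed exons is not given in the sources used here.

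Among the 42 measured P450 genes, 9 were at least 2-fold lower in the double knockout (21.4%), against 2.87% of all 13290 measured genes. Another 2 were at least 2-fold higher (4.76%), near the 3.53% of all measured genes. At 1.5-fold, 20 were lower against 10.0% of all measured genes and 5 higher against 13.7%, and at 3-fold 2 were lower against 0.256% and 0 higher against 0.549%. The signal was lower by any amount for 29 of the 42, or 69.0%, against 43.9% of all measured genes. The median log2 difference was -0.49 over the P450 genes and 0.07 over all measured genes. The 9 lower genes were Cyp2d12, Cyp2d9, Cyp2j11, Cyp2c23, Cyp26a1, Cyp2d26, Cyp2f2, Cyp4a14 and Cyp4a12a, and the 2 higher genes were Cyp26b1 and Cyp1b1.

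The families did not stand alike. Family 2 held 20 measured genes with a median of -0.70, and 17 of them were lower. Family 4 held 10 with a median of -0.34, and 8 were lower. The 12 measured genes of the other families had a median of 0.16, with 4 lower and 8 higher. When all differences were centred on proximal tubule markers, the medians of families 2 and 4 became 0.15 and 0.51. The family 2 median was -0.32 when 32 was added to each signal (a pseudocount) and no floor was set. It was -0.49 and -0.91 with the floor at the 25th and the 60th percentile, and -0.55 without a floor. That of family 4 moved as well, to -0.60 with the floor at the 25th or the 60th percentile. It was -0.21 after removal of a loess trend, and -0.07 without a floor or with the pseudocount.

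**Figure D1:**
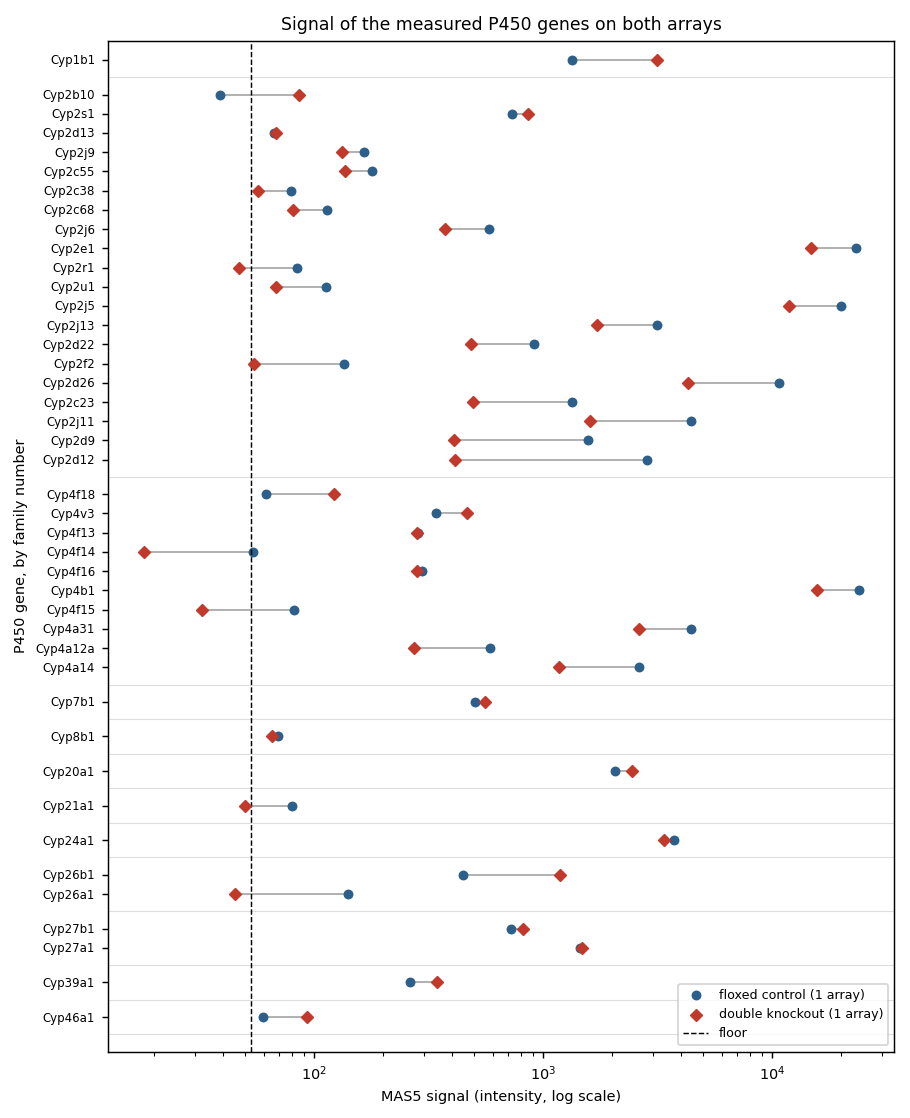
MAS5 signal (log axis) of each measured P450 gene on the floxed control array (circles) and the double knockout array (diamonds), 1 array per genotype, ordered by family number and joined by a line. The broken line is the floor of 52.7 and only the gap within a line can be compared; the longest gap to the left is that of Cyp2d12 (2848 to 412), while Cyp1b1 and Cyp26b1 run the other way.

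Kidney cell markers differed between the arrays as well, and these values stand beside every P450 result below. All 31 measured proximal tubule markers were lower in the double knockout, with a median log2 difference of -0.85, a range from -1.66 to -0.28, and 10 at least 2-fold lower. Their summed signal was 215771 in the double knockout against 363030 in the floxed control, and none was at 0. The largest differences were those of Dpys, Slc7a13, Slc6a19 and Acy3 (-1.66, -1.43, -1.28 and -1.19). Slc13a1, picked after its values were seen, was lower in its first probe set (-0.53). Its second probe set was higher at 841 and 616 (0.45). Every other proximal tubule marker with a second probe set at or above the floor was lower in it. All 21 measured markers of the loop, distal tubule and collecting duct were lower too, with a median of -0.72 and summed signals of 50282 and 72615. Slc4a1, Foxi1, Calb1 and Pvalb differed most (-1.58, -1.30, -1.25 and -0.99). Tubule transcripts were therefore detected in the sieved glomeruli of both groups.

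Glomerular cell markers went the other way. The 69 measured markers of podocytes, glomerular endothelium, mesangial and mural cells and parietal epithelium had a median of 0.59, with 60 above 0, 12 at least 2-fold higher and summed signals of 310437 and 240351. By cell type the medians were 0.51 for 21 podocyte markers, 0.59 for 19 endothelial markers, 0.72 for 17 mesangial and mural markers and 0.83 for 12 parietal markers. The podocyte markers were split into 17 higher and 4 lower, among them Tdrd5 (-0.85) and Sema3g (-0.73), both picked after their values were seen. The podocyte median was -0.09 when centred on all glomerular cell markers. Nphs1, which encodes nephrin and defines podocytes, read 8373 in the double knockout against 5320 in the floxed control. It was likewise picked after its value was seen. The largest differences by size were those of Kirrel (1.14) and Ptpro (0.97) among podocyte markers, Gpihbp1 (1.45) and Cd34 (1.15) among endothelial markers, Tagln (1.69) and Postn (1.44, control below the floor) among mesangial and mural markers, and Cd44 (2.46) and Cdh6 (2.45) among parietal markers. The 15 measured macrophage markers were all higher, with a median of 0.87, 5 at least 2-fold higher and summed signals of 13612 and 7628, led by C1qc (1.44) and Ccr2 (1.39).

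Of the 42 P450 genes, 11 had a difference below the median of the proximal tubule markers and 2, Cyp2d12 and Cyp2d9, lay below the lowest of those markers. A further 22 lay inside the markers' range, and 18 lay above the highest of them. In tissue of mixed cells, fewer tubule cells and less P450 RNA per tubule cell cannot be told apart. The part of the tubule markers' difference in the P450 differences was not tested. Every direction given here is for the arrays as deposited. Centring on the proximal tubule markers left 11 P450 genes below 0, namely the 9 lower genes, Cyp2d22 and Cyp2j13. Centring on the glomerular cell markers left 37 below 0 and only Cyp26b1, Cyp1b1, Cyp4f18, Cyp2b10 and Cyp46a1 above it.

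**Figure D2:**
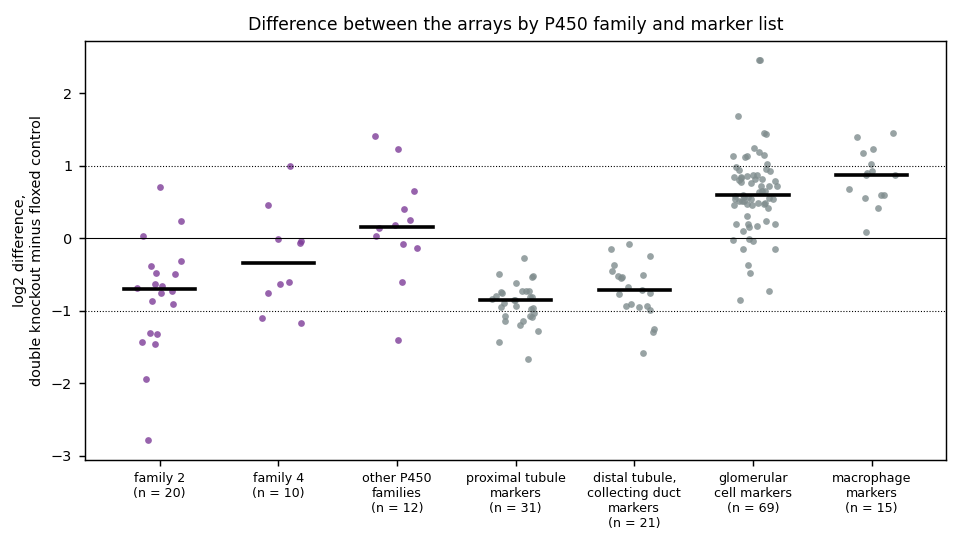
Log2 difference between the arrays for the measured genes of P450 family 2, family 4 and the other P450 families, beside the markers of tubule segments, glomerular cells and macrophages; each point is a gene, bars are medians and dotted lines mark 2-fold. Family 2 (median -0.70) overlaps the proximal tubule markers (-0.85) but reaches further down, and the other P450 families (0.16) straddle 0.

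The Cyp2d genes, drug-metabolising enzymes that form a tight gene cluster in the mouse, held the largest differences. Cyp2d12 read 412 in the double knockout against 2848 in the floxed control, 6.91-fold lower, and only 3 of the 13290 measured genes had a lower log2 difference than its -2.79. Cyp2d9, which encodes a testosterone hydroxylase known from male mouse liver, read 406 and 1560, 3.84-fold lower (-1.94), at rank 11 from the bottom. For Cyp2d26 the signals were 4286 and 10727, 2.50-fold lower (-1.32). Cyp2d22 read 483 and 909, 1.88-fold lower (-0.91), and its second probe set gave 391 and 519, a smaller difference of -0.41. Cyp2d13 was level at 67.8 and 66.5 (0.03), close to the floor. Cyp2d10, Cyp2d34 and Cyp2d40 stayed below the floor on both arrays. Thus 4 of the 5 measured Cyp2d genes were lower, 3 of them at least 2-fold. Over all measured genes 43.9% were lower and 2.87% at least 2-fold lower, shares that stand for the P450 groups below as well. Mouse Cyp2d genes are close paralogs, so a probe set named for one may also pick up RNA of another, and the split of the signal between them is uncertain.

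In the order of the RefSeq genes, Cyp2d22, Cyp2d9, Cyp2d12 and Cyp2d26 lie in one run on chromosome 15, where a run allows at most 5 other protein-coding genes between neighbours. The bases before the start sites of Cyp2d9 and Cyp2d26 are shown because both genes are in that run and both were at least 2-fold lower. They cover 250 bases up to the start, 5′ to 3′ on the gene's strand, from RefSeq on GRCm38.p6. Cyp2d9 is at chr15:82452127-82452376 on the plus strand and Cyp2d26 at chr15:82794246-82794495 on the minus strand. Capitals mark matches to TATAAA, a core promoter element. In Cyp2d26 they also mark a match to GTTAAT, a half-site of the tubule and liver factor HNF1. Both were searched on either strand.
Cyp2d9: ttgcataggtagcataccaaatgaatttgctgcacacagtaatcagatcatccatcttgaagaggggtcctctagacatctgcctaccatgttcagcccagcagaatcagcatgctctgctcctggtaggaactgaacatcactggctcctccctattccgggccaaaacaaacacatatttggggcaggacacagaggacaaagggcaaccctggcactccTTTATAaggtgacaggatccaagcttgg
Cyp2d26: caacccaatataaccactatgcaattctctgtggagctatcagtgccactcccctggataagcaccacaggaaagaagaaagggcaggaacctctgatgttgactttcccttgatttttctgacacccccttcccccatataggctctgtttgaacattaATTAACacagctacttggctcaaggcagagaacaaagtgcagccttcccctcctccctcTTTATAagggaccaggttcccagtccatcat
Both windows held the TATAAA match on the minus strand at a like distance, with its first base 28 bases before the start in Cyp2d9 and 31 bases before it in Cyp2d26. A match to TATAAA was found in 13.0% of all 27025 promoter windows of this length and in 8 of the 30 measured P450 genes with a window. GTTAAT was found in 6.52% of all windows and in 2 of those 30. AGGTCA, a half-site of nuclear receptors, was found in 13.8% of all windows and in 2 of those 30, among them Cyp2f2 but neither sequence above. A match is a description of the letters only.

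The Cyp2j genes, in a run on chromosome 4, include arachidonic acid epoxygenases of the renal tubule. All 5 with a probe set were measured and all 5 were lower, with a median of -0.75. Cyp2j5, the epoxygenase of the mouse proximal tubule, read 11810 in the double knockout against 19889 in the floxed control, 1.68-fold lower (-0.75), and its second probe set gave 2171 and 3677 (-0.76). Cyp2j11 stood lowest at 1603 and 4408, 2.75-fold lower (-1.46). Cyp2j13 read 1716 and 3120, 1.82-fold lower (-0.86). The signals of Cyp2j6 were 372 and 577, 1.55-fold lower (-0.63), but its second probe set gave only -0.23 (381 and 446). Cyp2j9 read 133 and 165 (-0.31). The direction was shared by the whole group, while only Cyp2j11 passed 2-fold.

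Of the 11 Cyp2c genes, which hold epoxygenases and drug-metabolising enzymes of the liver, 4 were measured and all 4 were lower. Cyp2c23, which encodes an arachidonic acid epoxygenase of rodent kidney, read 492 in the double knockout against 1330 in the floxed control, 2.70-fold lower (-1.43). Cyp2c68 read 80.3 and 113 (-0.50), Cyp2c38 read 56.7 and 79.1 (-0.48), and Cyp2c55 read 136 and 178 (-0.39). Cyp2c68 and Cyp2c38 had signals near the floor on both arrays, and the other 7 Cyp2c genes did not reach it. Cyp2c29 and Cyp2c50 were among the unmeasured ones.

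The other genes of family 2 were split in direction. Cyp2e1, which oxidises ethanol and small solvents, read 14809 in the double knockout against 23295 in the floxed control, 1.57-fold lower (-0.65), within the range of the proximal tubule markers. Cyp2f2, known from the club cells of the lung airway, read 54.5 and 135, 2.48-fold lower (-1.31), with the lower value just above the floor. Cyp2u1, a fatty acid hydroxylase, read 67.9 and 112 (-0.73). Cyp2r1, which hydroxylates vitamin D in the liver, read 46.7 in the double knockout, below the floor, and 84.4 in the floxed control, at least 1.60-fold lower. Cyp2s1, an enzyme of epithelia outside the liver, was higher at 857 and 731 (0.23). Cyp2b10, the classical target of the receptor CAR in liver, read 86.1 in the double knockout against 38.9 in the floxed control, at least 1.63-fold higher. Its other probe sets stayed below the floor, at 6.05 and 16.0 and at 12.1 and 22.9. Cyp2b10 was the only P450 gene above the floor in the double knockout alone, against 5 above it in the floxed control alone. Of the remaining family 2 genes, Cyp2a12, Cyp2b9, Cyp2b13, Cyp2b19 and Cyp2g1 were not measured.

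Family 4 enzymes add a hydroxyl group at the end of a fatty acid chain. The Cyp4a and Cyp4b genes, which lie in one run on chromosome 4, were all lower. Cyp4a14, a target of the fatty acid receptor PPARα, read 1165 in the double knockout against 2609 in the floxed control, 2.24-fold lower (-1.16). Cyp4a12a, the arachidonic acid hydroxylase of male mouse kidney, read 272 and 585, 2.15-fold lower (-1.10). Cyp4a31 read 2616 and 4431, 1.69-fold lower (-0.76), with -0.92 in its second probe set (638 and 1206). Cyp4b1 read 15655 and 23811, 1.52-fold lower (-0.60). These 4 differences lay within the range of the proximal tubule markers.

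The Cyp4f genes, which include hydroxylases of leukotrienes, showed other patterns. Cyp4f13 was level at 281 and 283 (-0.01), and Cyp4f16 at 280 and 294 (-0.07), with 0.08 in its second probe set. Cyp4f18, the leukotriene hydroxylase of mouse neutrophils, read 122 in the double knockout against 61.2 in the floxed control. Its log2 difference of 0.998 left it just short of the 2-fold rule. The control signal was near the floor, and another Cyp4f18 probe set stayed below the floor at 2.92 and 26.2. Cyp4f15 read 32.5, below the floor, and 81.3, at least 1.54-fold lower, and Cyp4f14 read 18.0 and 54.2, at least 1.03-fold lower because the control itself was just above the floor. Cyp4v3, a fatty acid hydroxylase, read 463 and 338 (0.45) and 0.82 in its second probe set (289 and 164). The median over the 5 measured Cyp4f genes was -0.04, against -1.10 over the 3 Cyp4a genes. Cyp4f39, Cyp4f41-ps and Cyp4x1 were below the floor.

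Cyp1b1, a P450 of stromal and vascular cells that metabolises oestrogens and aromatic hydrocarbons, was higher in the double knockout. Its signal was 3123 against 1330 in the floxed control, 2.35-fold higher (1.23), and its second probe set gave 1039 and 377 (1.46). A further probe set stayed below the floor at 28.4 and 28.0. Cyp1a1 and Cyp1a2, the other targets of the aryl hydrocarbon receptor in this family, were below the floor at 40.4 and 42.7 and at 20.7 and 12.9. The 250 bases before its start, at chr17:79715062-79715311 on the minus strand of GRCm38.p6 in RefSeq, are shown for the core of the element bound by the aryl hydrocarbon receptor, GCGTG, marked in capitals.
Cyp1b1: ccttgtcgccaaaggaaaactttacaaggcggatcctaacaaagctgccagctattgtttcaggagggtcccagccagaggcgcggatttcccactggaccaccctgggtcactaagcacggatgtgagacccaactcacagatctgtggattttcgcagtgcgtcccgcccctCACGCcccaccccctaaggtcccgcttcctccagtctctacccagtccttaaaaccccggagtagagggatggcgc
The window held 1 match, on the minus strand, with its first base 76 bases before the start. GCGTG is short and common, being present in 28.2% of all windows, in 10 of the 30 measured P450 genes with a window, and in none of the 5 with a window that were at least 2-fold lower.

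**Figure D3:**
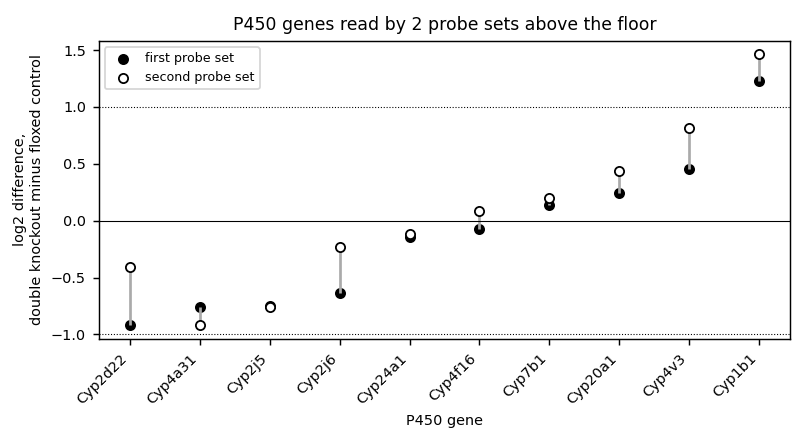
Log2 difference in the first probe set (filled; the one of highest mean signal, without sets of suffix _x_at where another exists) and the next (open) for the 10 P450 genes with 2 probe sets at or above the floor on both arrays; dotted lines mark 2-fold. Only Cyp4f16 changes side, from -0.07 to 0.08, and the widest gap is that of Cyp2d22.

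Second probe sets were the only internal check on a gene's value. Among the 10 P450 genes that had one at or above the floor on both arrays, 9 kept their direction, against 75.9% of 5859 genes over the whole array. The median absolute gap between the probe sets was 0.18 on the log2 scale for the P450 genes and 0.20 over all genes, and the widest P450 gap was 0.50. Of the 11 genes past 2-fold, only Cyp1b1 had such a second probe set, and the other 10 rest on 1 probe set each. For Cyp2d9, Cyp2c23 and Cyp2f2 that probe set carries a suffix (_a_at or _s_at) that marks probes shared between transcripts, and leaving out these sets and those of suffix _x_at gave 6 genes of 39 at least 2-fold lower, against 2.98% of all genes then measured.

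The retinoic acid hydroxylases of family 26, which clear retinoic acid, stood on opposite sides. Cyp26b1 read 1179 in the double knockout against 445 in the floxed control, 2.65-fold higher (1.41). Cyp26a1 read 45.2 in the double knockout, below the floor, and 140 in the floxed control, at least 2.66-fold lower (-1.41). Cyp26a1 is known for a retinoic acid response element beside its start site, so its 250 bases before the start are shown, with those of Cyp26b1 for comparison. Cyp26a1 is at chr19:37697558-37697807 on the plus strand and Cyp26b1 at chr6:84593811-84594060 on the minus strand of GRCm38.p6 in RefSeq. Capitals mark a match to the DR5 retinoic acid response element (AGTTCA repeated in one direction after 5 free bases) in Cyp26a1 and to TATAAA in Cyp26b1.
Cyp26a1: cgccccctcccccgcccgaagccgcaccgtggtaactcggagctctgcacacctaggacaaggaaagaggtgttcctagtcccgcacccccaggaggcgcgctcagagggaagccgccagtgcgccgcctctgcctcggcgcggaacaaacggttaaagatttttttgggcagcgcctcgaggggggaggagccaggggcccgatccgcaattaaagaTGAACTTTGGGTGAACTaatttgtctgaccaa
Cyp26b1: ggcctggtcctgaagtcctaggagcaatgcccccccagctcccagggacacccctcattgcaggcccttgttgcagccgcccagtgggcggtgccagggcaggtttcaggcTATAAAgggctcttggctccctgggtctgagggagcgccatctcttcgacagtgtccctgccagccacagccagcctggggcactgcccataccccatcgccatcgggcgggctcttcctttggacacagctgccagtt
The response element was found on the minus strand of Cyp26a1, with its first base 32 bases before the start. Only 6 of the 27025 windows (0.0222%) held these exact letters, and that of Cyp26b1 did not. The element was already known at Cyp26a1, so its match there is no test. Other spellings of the half-sites were not searched, so the share and the absence in Cyp26b1 hold for this spelling alone. TATAAA lay on the plus strand of Cyp26b1, 139 bases before the start.

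Genes that make, bind and sense retinoic acid were also read, within a list of 21 genes of retinoid and vitamin D handling of which 14 were measured. Crabp1, which binds retinoic acid in the cytosol, read 44.9 in the double knockout, below the floor, and 186 in the floxed control, at least 3.53-fold lower. Lrat, which esterifies retinol, read 29.0 and 115, at least 2.17-fold lower. Aldh1a3, which makes retinoic acid, read 118 and 58.0, 2.04-fold higher. Aldh1a1 (0.57) and Aldh1a2 (0.85), the latter also a parietal marker, were higher too. Rarb, which encodes a retinoic acid receptor, read 0.16. Rdh11 (-0.46), Rdh10 (-0.39) and Dhrs3 (-0.36) of the same list were lower. Aldh1a1, Aldh1a2, Rarb, Rdh11, Rdh10 and Dhrs3 were picked after their values were seen. Of the 14 measured genes 9 were lower and 5 higher. Kl, which encodes the phosphate and vitamin D regulator klotho, read 4007 and 7768, 1.94-fold lower (-0.95; -1.07 in its second probe set). In all, 2 of the 14 were at least 2-fold lower and 1 at least 2-fold higher, against 2.87% and 3.53% of all measured genes, shares that stand for the lists below as well. The median was -0.43, or 0.43 centred on proximal tubule markers and -0.23 without probe sets of suffix _x_at, _s_at or _a_at.

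The vitamin D enzymes of the tubule were close to level, although the proximal tubule markers were lower. Cyp27b1, which makes the active hormone, read 818 in the double knockout against 722 in the floxed control (0.18). Cyp24a1, which inactivates it, read 3369 and 3710 (-0.14), with -0.12 in its second probe set. All 31 proximal tubule markers had a lower difference than Cyp27b1 and Cyp24a1. The sterol hydroxylase Cyp27a1 of mitochondria was level too, at 1482 and 1450 (0.03).

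Sterol and bile acid P450 genes of the other families were higher or level. Cyp7b1, which hydroxylates oxysterols and is male-biased in mouse liver, read 556 and 505 (0.14), with 0.20 in its second probe set. Cyp39a1, another oxysterol hydroxylase, read 345 and 262 (0.40). Cyp46a1, the cholesterol hydroxylase of brain, read 93.1 and 59.5, 1.57-fold higher (0.65), with the control signal near the floor. Cyp8b1, of bile acid synthesis, read 65.3 and 69.3 (-0.08), and Cyp7a1, the rate-limiting enzyme of that pathway, was not measured. The orphan enzyme Cyp20a1 read 2434 and 2052 (0.25), with 0.44 in its second probe set.

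Steroid hormone P450 genes gave almost no signal. Cyp11a1, which starts steroid synthesis, Cyp11b1, Cyp17a1 and Cyp11b2, which makes aldosterone, were all below the floor on both arrays. Cyp21a1, a hydroxylase of the adrenal cortex, read 49.7 in the double knockout, below the floor, and 80.1 in the floxed control, at least 1.52-fold lower. Of 9 adrenal cortex markers with a probe set only 4 were measured (Scarb1 0.96, Fdx1 -0.93, Pcsk5 0.72 and Star -0.22), and the adrenal receptor Mc2r read 1.21 and 1.40. The adrenal markers Nr5a1, Hsd3b1, Mrap and Agtr1b were also below the floor on both arrays. Like Mc2r, they were picked after their values were seen. All 5 genes of family 3, the main drug-metabolising P450 genes of liver and gut, were below the floor, and no unmeasured P450 gene exceeded 48.0 in the double knockout or 46.7 in the floxed control. Among hepatocyte markers 10 of 17 with a probe set were measured, and 6 were lower and 4 higher. Apoa2 (-1.64), Ttr (-1.23) and Alb (-1.19) were at least 2-fold lower and Apoc3 read -0.98, whereas Fgb (0.46), Fga (0.34), Itih3 (0.30) and Fgg (0.10), picked after their values were seen, were higher. The median of these markers was -0.49 and moved with the processing. It was 0.36 centred on proximal tubule markers, -0.18 under median or 75th percentile centring, -0.21 under quantile normalization, -0.22 with either other floor, -0.14 without a floor, -0.07 with the pseudocount and -0.06 without probe sets of suffix _x_at, _s_at or _a_at. The kidney expresses several of these genes.

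The partners that serve all P450 enzymes were lower by less. Of 17 measured genes for electron transfer and heme supply, 13 were lower, none passed 2-fold, and the median was -0.31, or 0.54 centred on proximal tubule markers. Fdx1, the ferredoxin of mitochondrial P450 enzymes, read 3388 in the double knockout against 6475 in the floxed control, 1.91-fold lower. Cyb5b, an outer mitochondrial cytochrome, read 3825 and 6527, and Hmox2, which degrades heme, read 1863 and 2957. Alad, of heme synthesis, read 1392 and 2214 (-0.67), but its second probe set went the other way at 236 and 194 (0.28). Alas1, the first enzyme of heme synthesis, read 2036 and 2530 (-0.31), with -0.14 in its second probe set.

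Nuclear receptors and sensors that act on P450 genes were split. Of 22 measured, 12 were lower and 10 higher, with a median of -0.30 and a mean of -0.05. That median was 0.56 centred on proximal tubule markers, 0.16 without a floor, 0.025 with the pseudocount and -0.15 as a mean over probe sets. Rxrb, a common partner of these receptors, read 1209 and 550, 2.20-fold higher (1.14). Ahr, which encodes the aryl hydrocarbon receptor, read 859 and 428, 2.01-fold higher (1.01). Ahrr, the repressor of that receptor, was below the floor at 14.7 and 1.41, and like Cyp1a1 and Cyp1a2 it gives no difference to set beside that of Ahr. Nr1h4, the bile acid receptor, read 912 and 1799, 1.97-fold lower (-0.98), and Pparg read 93.1 and 45.2, the control below the floor, at least 1.77-fold higher. Hnf4a, a factor of proximal tubule and liver, read 3938 and 6077 (-0.63), Nr1i2, which encodes the xenobiotic receptor PXR, had a log2 difference of -0.78, and Ppara read 550 and 713 (-0.37, and -0.76 in its second probe set). Hnf4a, Nr1i2, Ppara, Ahrr and Alas1 were picked after their values were seen.

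Enzymes listed beside the P450 branch of eicosanoid metabolism, epoxide hydrolases among them, had a median of 0.26 over 19 measured genes. The median over all measured genes was 0.07. Centred on glomerular cell markers, the median of the list was -0.34. The median was 0.45 and 0.38 with the floor at the 25th and 60th percentile, 0.67 without a floor, 0.49 with the pseudocount and 0.58 without probe sets of suffix _x_at, _s_at or _a_at. Of these genes 12 were higher, 1 of them at least 2-fold. The other 7 were lower (36.8%), against 43.9% of all measured genes. Pla2g4a, which releases arachidonic acid from membranes, read 1317 and 635, 2.07-fold higher (1.05). Alox5ap, of leukotriene synthesis, read 963 and 502 (0.94), and Alox12 read 575 and 323 (0.83). Ephx2, the soluble hydrolase that breaks down the epoxides made by P450 epoxygenases, read 2563 and 5106, 1.99-fold lower (-0.99). Ephx1, another epoxide hydrolase on the list, read 5232 and 3105 (0.75) and was picked after its value was seen.

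Steroid and bile acid enzymes outside the P450 family were mostly lower. Among 16 measured, 14 were lower, 2 at least 2-fold, and the median was -0.48, or 0.37 centred on proximal tubule markers. Hsd11b1, which regenerates active glucocorticoid, read 462 and 1205, 2.61-fold lower (-1.38), and Hsd17b2, which inactivates sex steroids, read 96.1 and 210, 2.18-fold lower (-1.12). Hsd3b2 read 1087 and 1904 (-0.81), and Amacr, which acts on bile acid precursors, read 3381 and 5856 (-0.79). Since several P450 genes here are male-biased in mouse kidney or liver, androgen-regulated kidney genes were read as well. Of 7, 6 were lower and 3 at least 2-fold lower, with a median of -0.64, or 0.21 centred on proximal tubule markers. Slc7a13 (-1.43), Timd2 (-1.18), Acsm3 (-1.18) and Slco1a1 (-0.64) differed most, and Slc7a13 is also a proximal tubule marker. Kap, the kidney androgen-regulated protein gene and also a proximal tubule marker, read 28247 and 34191 (-0.28) and was likewise picked after its value was seen.

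The scaling of the arrays set the zero from which these differences are read. Median centring, centring on the 75th percentile, quantile normalization and removal of a loess trend each left 10 P450 genes at least 2-fold lower, Cyp2d22 joining the 9, and the same 2 higher. The share of all measured genes at least 2-fold lower was then 3.98%, 3.98%, 3.28% and 3.31%, and the share higher lay between 2.50% and 2.68%. When differences were instead centred on the proximal tubule markers, the P450 median became 0.36, and only Cyp2d12 (-1.94) and Cyp2d9 (-1.09) remained at least 2-fold lower while 10 genes were at least 2-fold higher. Under that setting 42.4% of all measured genes were past 2-fold upward and 0.113% downward. Centred on glomerular cell markers, 22 P450 genes were at least 2-fold lower and none higher, with Cyp26b1 at 0.81 and Cyp1b1 at 0.64, against 16.7% and 0.542% of all measured genes.

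**Figure D4:**
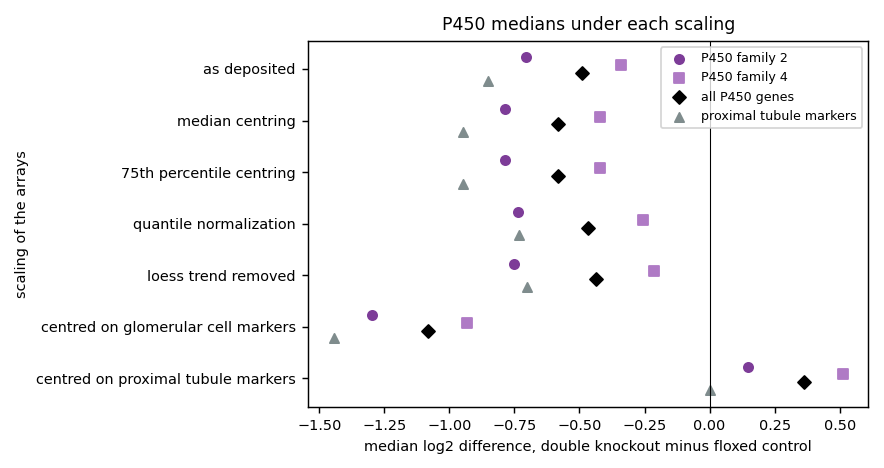
Median log2 difference of P450 family 2, family 4, all measured P450 genes and the proximal tubule markers under 7 scalings of the 2 arrays. The P450 median runs from -1.08 (centred on glomerular cell markers) to 0.36 (centred on proximal tubule markers, which by construction sit at 0).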

How the data were processed

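Glomerular RNA was hybridised as biotinylated cRNA to 1-colour 3′ expression arrays, per the labels' protocols. The deposited values are 1 intensity per probe set, made by the authors with MAS5 per the submitters' processing notes, and its version is not given in the sources used here. The mean after trimming 2% at each end was 500.0 on both arrays, so a difference is relative to the rest of the sample. With 1 array per genotype, the number of arrays limits the precision.

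Values were not rescaled, and 64 control probe sets were left out. Names came from the platform annotation in GEO, and the identifiers of all 72 P450 genes matched RefSeq (GRCm38.p6). A gene was read by its probe set of highest mean log2 signal, without _x_at sets where another exists. The floor was the mean of the arrays' 40th percentiles (52.7). Counts past 2-fold are not tests.

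The P450 genes, lists, markers and motifs were chosen with earlier results of these data known. Named were all measured P450 genes and listed genes that differed most (up to 4 a list), and others are marked. Promoter windows were those of 51 P450 genes in RefSeq. Alternatives were other floors, scalings, probe sets and size rules. The steps were checked on simulated signals (Python 3.11.15, numpy 2.4.6, pandas 2.3.3, statsmodels 0.14.6).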

Additional observations from a re-analysis of the deposited data

How the results depend on the processing

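No paired analysis was possible because each genotype has 1 array, and for the same reason no replicate could be left out. The count of 9 lower P450 genes was 14 of 72 without a floor, where every gene counts as measured and 8.20% of all genes were lower, 20 by a 1.5-fold rule and 2 by a 3-fold rule, against 10.0% and 0.256% of all measured genes by those rules. It was 2 when centred on proximal tubule markers and 22 when centred on glomerular markers. The count of 2 higher genes was 10 of 72 without a floor, against 9.10% of all genes, 5 by the 1.5-fold rule and 0 by the 3-fold rule, and 10 and 0 under those centrings. The median of -0.49 was -0.20 and -0.62 with the floor at the 25th and 60th percentile, -0.28 without a floor, -0.10 with a pseudocount of 32, 0.36 and -1.08 under the centrings, and -0.026 without family 2. Fewer or more low genes enter under the floors, and the cause of the other shifts was not tested.

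Each of the 11 genes past 2-fold kept its direction under every setting in which it was measured. Centring on proximal tubule markers turned the medians of family 2 (0.15), family 4 (0.51), redox and heme genes (0.54), nuclear receptors (0.56), retinoid and vitamin D genes (0.43), steroid and bile acid enzymes (0.37), hepatocyte markers (0.36), androgen-regulated genes (0.21) and distal markers (0.13). Centring on glomerular markers turned those of eicosanoid enzymes (-0.34), adrenal markers (-0.34) and podocyte markers (-0.09). The nuclear receptor median was 0.16 without a floor, and the adrenal median, over 4 genes, was -0.20 without a floor, -0.008 with the pseudocount, 0.72 with the floor at the 60th percentile and -0.67 without probe sets of suffix _x_at, _s_at or _a_at. Of 57 checks of the counts and of the P450 median, 40 stayed within 1.5 times the count or 0.1 of the median.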
